A study of Homo sapiens with 24 samples.

Results

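WWOX and 9 genes whose proteins were reported to bind the WWOX protein were followed in CAGE-Seq data from 4 established human cell lines derived from glioblastoma, namely DBTRG-05MG, T98G, U251MG, and U87MG. The 10 genes, WWOX, TP73, TFAP2A, TFAP2C, ERBB4, RUNX2, DVL1, GLI1, SMAD3, and ITCH, were taken by their Ensembl identifiers out of the 43037 genes in the deposited table, a rule that uses no measured value. CAGE-Seq reads the 5′ ends of capped transcripts, and the deposited values are tags per gene scaled to 1000000 tags of the library (CPM). In each line, a “Vec” variant received Puro-Blank Lentivirus and a “WWOX” variant received the pLenti-GIII-CMV-GFP-2A-Puro system meant to overexpress WWOX. The authors report that Western blots of extracted protein verified the efficiency of transduction, whereas the values here are transcript tags. Lentivirus was used at MOI 1.5 and followed by 1 µg/mL puromycin in every group, so all 8 groups are stable transductants and no untransduced cells were analysed. Each group had 3 libraries, described as biological replicates, which gave 24 in all. T98G was grown in MEM, DBTRG-05MG in RPMI 1640, and U251MG and U87MG in EMEM, so a difference between lines and a difference between media cannot be told apart for T98G and DBTRG-05MG. Tags of a transgene start at the promoter of the vector, and whether they were counted under WWOX is not given in the sources used here.

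WWOX is a tumor suppressor with WW domains, which hold short proline-rich motifs of other proteins, and with a short-chain dehydrogenase domain. Through the WW domains it is known to bind transcription factors, among them p73, AP-2 alpha, AP-2 gamma, RUNX2, SMAD3, GLI1, and the intracellular fragment of the receptor ERBB4, and to keep many of them in the cytoplasm. It also binds Dishevelled proteins of the Wnt pathway and the ubiquitin ligase ITCH, and the gene spans a fragile site that is often broken in tumors. These contacts are between proteins, whereas the values below are levels of transcripts.

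The promoters of 3 members are shown because CAGE tags mark the starts that follow them, and because the windows printed differ in GC boxes, a TATA box, and base composition. Each window holds the 250 bases before the start of the gene on its own strand, in hg38 coordinates, and overlaps no annotated exon. Capitals mark a GC box (GGGCGG or CCGCCC), a letter pattern of the kind bound by SP1, or a TATA box (TATAAA on the strand shown). Those of DVL1 (chr1:1349419-1349668, minus strand) and TFAP2A (chr6:10419660-10419909, minus strand) were copied from the RefSeq promoter table, and that of WWOX (chr16:78099150-78099399, plus strand) was read from hg38 before the GENCODE 44 start, since the WWOX promoter in the RefSeq table (chr16:78099404-78099653) starts inside the annotated gene and overlaps an exon. 
DVL1: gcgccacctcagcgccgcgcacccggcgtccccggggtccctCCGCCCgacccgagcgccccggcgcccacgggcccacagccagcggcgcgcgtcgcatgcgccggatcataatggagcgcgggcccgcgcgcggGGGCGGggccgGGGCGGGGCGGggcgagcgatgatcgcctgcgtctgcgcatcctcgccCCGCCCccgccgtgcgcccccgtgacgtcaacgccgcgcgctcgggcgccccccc
TFAP2A: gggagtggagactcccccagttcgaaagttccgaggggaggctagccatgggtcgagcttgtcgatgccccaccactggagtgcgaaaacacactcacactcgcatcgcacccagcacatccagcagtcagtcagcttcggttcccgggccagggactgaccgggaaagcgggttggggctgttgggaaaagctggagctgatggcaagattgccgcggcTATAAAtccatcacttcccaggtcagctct
WWOX: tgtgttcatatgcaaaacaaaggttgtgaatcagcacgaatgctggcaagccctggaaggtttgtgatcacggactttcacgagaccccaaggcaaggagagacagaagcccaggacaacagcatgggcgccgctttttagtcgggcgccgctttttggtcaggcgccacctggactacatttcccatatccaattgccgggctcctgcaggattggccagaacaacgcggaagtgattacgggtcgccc
The DVL1 window was 83.2% G or C, with 49 CpG and 5 GC boxes, some of which run into each other. The TFAP2A window was 59.6% G or C, with 13 CpG and a single TATA box near its end, and the WWOX window was 54.8% G or C, with 14 CpG and neither box. The RefSeq promoter of WWOX, which follows that window, was 67.6% G or C, with 27 CpG and 1 GC box, and it is the one counted for WWOX among the promoters below. Across all promoters in the table the median was 58% G or C and 11 CpG in 250 bases. RefSeq promoters matched 8 of the 10 members (16 promoters), and TFAP2C and GLI1 were not matched. Counted on either strand (TATAAA or TTTATA for the TATA box), GC boxes occurred in 7 of the 16 promoters (42.6% of 35116 promoters) and TATA boxes in 1, that of TFAP2A (10.7% of all). Searched on both strands, the AP-2 pattern GCCNNNGGC occurred in 4 of 16 (19.8% of all), the RUNX pattern TGTGGT in 2 (10.98%), the SMAD pattern GTCTAGAC in 1, that of ITCH (0.182%), and the GLI pattern GACCACCCA in 0 (0.199%). A match is a string of letters, not a bound site, and the tags were deposited per gene, not per promoter.

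The libraries held 10756072 to 16953689 tags counted on genes (median 14584829), and a count of 0 allows up to 3 tags, which is 0.177 to 0.279 CPM and covers counting error only. Markers of glioma and neural cells summed to between 749 and 5930 CPM per library, and 8 of 10 reached 5 CPM in at least 1 library, whereas OLIG2 and NCAM1 did not. CD44, VIM, and CDH2 were above 5 CPM in every library, with CD44 at 678 to 3520 CPM. GFAP had group means of 2655 (“Vec”) and 1949 CPM (“WWOX”) in U251MG and 1.99 to 6.12 CPM in the other lines. In U87MG and T98G the group means of SOX2, S100B, and FABP7 were 0.0204 to 0.506 CPM. Of 14 markers of other cell types, 9 stayed under 1 CPM in every library and the 14 together summed to 2.81 to 55.0 CPM per library. The 3 libraries of U251MG “WWOX” resembled each other least, with a mean Pearson r to their group of 0.904 to 0.930 across genes, followed by T98G “Vec” replicate 2 with 0.949, whereas the others were between 0.963 and 0.983.

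WWOX itself, on chromosome 16 (chr16:78099400-79212667, plus strand, hg38), was detected in every library, and its “WWOX” levels were above the “Vec” levels in U87MG and DBTRG-05MG without overlap. WWOX in U87MG measured 40.1, 33.9, and 39.8 CPM in the “Vec” libraries and 66.0, 61.3, and 61.0 CPM in the “WWOX” libraries. In DBTRG-05MG it measured 20.4, 22.2, and 21.3 CPM in “Vec” and 32.0, 28.2, and 27.96 CPM in “WWOX”. Both lines separated completely, and the gap was narrower in DBTRG-05MG. In T98G the values were 38.6, 57.2, and 34.2 CPM in “Vec” and 45.1, 61.8, and 60.0 CPM in “WWOX”, and a single “Vec” library, replicate 2, reached into the “WWOX” range. In U251MG the “Vec” libraries held 31.4, 36.8, and 32.1 CPM, and the “WWOX” libraries held 56.7, 17.4, and 38.0 CPM. The U251MG “WWOX” libraries thus covered the highest and the lowest value of that line, and replicate 2 lay below every “Vec” library. In such bulk libraries, fewer cells that express a gene and less RNA per cell cannot be told apart.

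**Figure D1:**
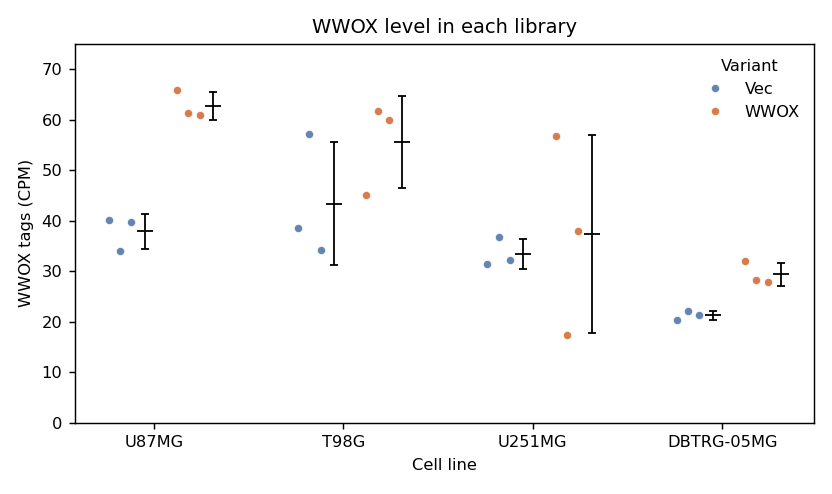
WWOX tags in CPM (vertical axis, from 0) in each of the 24 libraries by cell line and variant; crossbars give the mean ± SD of each group (n = 3). The “WWOX” libraries lie above all “Vec” libraries in U87MG and DBTRG-05MG, overlap them in T98G, and run from 17.4 to 56.7 CPM in U251MG.

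The log2FC of “WWOX” versus “Vec” was computed on scaled log2(CPM + 0.5) values with limma over all 24 libraries, for the 12327 genes that reached 5 CPM in at least 1 library, and p values were adjusted over all of these genes. For WWOX in U87MG it was 0.66 (standard error 0.222, 95% interval 0.20 to 1.12, 1.58-fold, adjusted p = 0.136). It was 0.39 for DBTRG-05MG (adjusted p = 0.770), 0.38 for T98G (adjusted p = 0.553), and −0.01 for U251MG (adjusted p = 1), and WWOX passed the threshold of 0.05 of limma for no line. The U87MG value passed with DESeq2 on the recovered tags (0.67, adjusted p = 0.0470) and without U251MG “WWOX” replicate 1 (0.66, adjusted p = 0.0462). In U251MG the sign followed the libraries used: log2FC was 0.23 without “WWOX” replicate 2 and −0.30 without “WWOX” replicate 1. The mean of the 4 lines was 0.35 ± 0.111 (standard error, adjusted p = 0.119 and unadjusted p = 0.00422 from limma). An exact two-sided permutation test within lines gave p = 0.00425, where 160000 arrangements allow no p under 1.25e-05. This and the permutation p values below are for single genes and are not adjusted. That mean passed the threshold of limma without U251MG “WWOX” replicate 2 (0.41, adjusted p = 0.0142) and without all 6 U251MG libraries (0.48, adjusted p = 0.0111).

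Of the 10 members, 9 were tested and ERBB4 was too low. With limma, 0 of them passed the threshold in any line, where the share of all genes that passed was 3.2% for U87MG, 1.14% for T98G, 0.316% for U251MG, and 1.02% for DBTRG-05MG. Before adjustment, p was under 0.05 for 4 members in U87MG (WWOX, TP73, TFAP2A, and TFAP2C), 1 in T98G (RUNX2), and 0 in U251MG and DBTRG-05MG. Of all 12327 genes, 1417 (U87MG), 1415 (T98G), 1423 (U251MG), and 941 (DBTRG-05MG) had such a p. The unadjusted counts of the gene lists below stand beside the same background. On the recovered tags, edgeR called 1 member, TP73 in U87MG, DESeq2 called 2, TP73 and WWOX in U87MG, and limma-voom called 0. On the scaled values, “WWOX” parted from “Vec” without overlap for 6 of 9 members in U87MG (17.5% of all genes), for 3 in T98G (16.2%), for 0 in U251MG (10.4%), and for 2 in DBTRG-05MG (19.7%). The 9 members had a median log2FC of 0.30 (U87MG), −0.25 (T98G), −0.01 (U251MG), and −0.05 (DBTRG-05MG), and that of all genes tested lay within 0.05 of 0 in every line. For the mean of the 4 lines 0 members passed (1.78% of all genes). An unadjusted p under 0.05 was found for 3 members (WWOX, TP73, and TFAP2A) and for 1900 of all 12327 genes. The same 3 members passed with DESeq2. The effect in a line minus the mean effect in the other lines was called by limma for 0 of 9 members in each line, where 2.39% of genes passed for U87MG, 1.54% for T98G, 0.422% for U251MG, and 0.982% for DBTRG-05MG. For that difference, 2 members had an unadjusted p under 0.05 in U87MG (TP73 and TFAP2C) and 1 in T98G (RUNX2). So did 1223 and 1576 of all 12327 genes in these lines. DESeq2 called TP73 in U87MG.

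**Figure D2:**
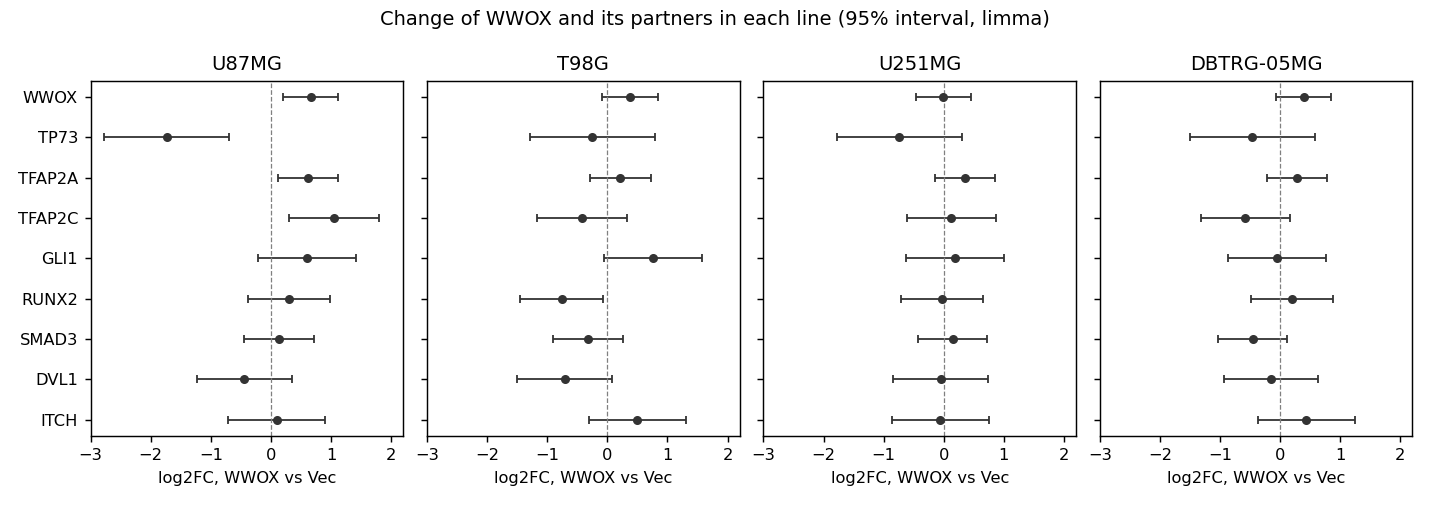
log2FC of “WWOX” versus “Vec” on the scaled log2(CPM + 0.5) scale (horizontal axis) for the 9 members tested, in each line; points are limma estimates and bars are 95% intervals. TP73 in U87MG lies farthest from 0 (−1.73), and the intervals of WWOX, TP73, TFAP2A, and TFAP2C exclude 0 in U87MG, although no member passed after adjustment over all genes.

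TP73 encodes p73, a member of the p53 family that activates genes of cell cycle arrest and apoptosis (chr1:3652516-3736201, plus strand). TP73 in U87MG measured 0.568, 2.47, and 2.24 CPM in “Vec” and 0.245, 0.136, and 0.0847 CPM in “WWOX”, that is, 72 tags summed over the “Vec” libraries and 7 over the “WWOX” libraries. All 3 “WWOX” libraries lay below all 3 “Vec” libraries, with 1 to 4 tags each. log2FC was −1.73 (standard error 0.50, 95% interval −2.77 to −0.69, adjusted p = 0.0633 from limma). This value depended on the scale for so low a level: it was −2.77 with a pseudocount of 0.1 (adjusted p = 0.00613), −3.44 with edgeR (adjusted p = 0.0132), and −3.52 with DESeq2 (adjusted p = 8.04e-04). It also passed the threshold of limma without U87MG “Vec” replicate 1 (−2.23, adjusted p = 0.0139), without DBTRG-05MG “Vec” replicate 2 (−1.73, adjusted p = 0.0269), and without U251MG “WWOX” replicate 1 (−1.73, adjusted p = 0.0389).

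In T98G, TP73 measured 2.32, 3.51, and 2.57 CPM in “Vec” and 1.02, 3.86, and 2.64 CPM in “WWOX”, and the groups overlapped. The U251MG libraries held 4.62, 12.3, and 6.09 CPM in “Vec” and 2.13, 4.22, and 7.03 CPM in “WWOX”, and those of DBTRG-05MG held 8.97, 2.38, and 12.8 CPM in “Vec” and 4.07, 5.12, and 5.48 CPM in “WWOX”. Both pairs of groups overlapped, and the DBTRG-05MG “Vec” libraries were spread more widely than the “WWOX” libraries. log2FC was negative in all 4 lines (−0.74 for U251MG, −0.47 for DBTRG-05MG, and −0.25 for T98G), with a mean of −0.80 (adjusted p = 0.120 from limma; exact two-sided permutation p = 0.0125). The negative sign in T98G was lost without “WWOX” replicate 1, where log2FC was 0.17. The mean passed the threshold without U87MG “Vec” replicate 1 (−0.93, adjusted p = 0.0435), without U251MG “WWOX” replicate 2 (−0.86, adjusted p = 0.0486), and without DBTRG-05MG “Vec” replicate 2 (−0.95, adjusted p = 0.0268). The start of TP73 lies within another gene on the opposite strand, and with the strand setting of the counting not given in the sources used here, tags of the opposite genes WRAP73, TP73-AS1, TP73-AS2, and TP73-AS3 cannot be told apart from those of TP73 here. Tags of the coding genes SUPT3H opposite RUNX2, TAS1R3 opposite DVL1, and ARHGAP9 opposite GLI1 cannot be told apart from those members either. WWOX overlaps 12 annotated genes on its own strand and 11 on the opposite strand, of which 0 are protein-coding. ITCH overlaps 4 on each strand, with 1 protein-coding gene on its own strand. TFAP2A, ERBB4, and SMAD3 also overlap genes that are not protein-coding. The starts of RUNX2, GLI1, and SMAD3, like that of TP73, lie within a gene on the opposite strand. How tags in such overlaps were counted is not given in the sources used here.

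For 12 genes that p53 family members activate, 3 of 48 gene-by-line tests had an unadjusted p under 0.05. In a line, 941 to 1423 of all 12327 genes had such a p. Among the 12 genes, 1 passed in U87MG (3.2% of all genes) and 0 in the other lines. It was PMAIP1, which encodes the pro-apoptotic protein NOXA, at 21.6 ± 15.2 CPM in “Vec” and 65.3 ± 24.9 CPM in “WWOX” (SD, n = 3; log2FC 1.66, adjusted p = 0.0117 from limma), and edgeR, limma-voom, and DESeq2 called it too. The call was lost without U87MG “Vec” replicate 2 (1.24, adjusted p = 0.140), “Vec” replicate 3 (1.52, adjusted p = 0.0768), or “WWOX” replicate 1 (1.41, adjusted p = 0.101), and with no filter (adjusted p = 0.0586) or a separate limma model per line (adjusted p = 0.124). PMAIP1 lies on chromosome 18, where the median log2FC in U87MG was 0.28 higher than over all genes, and the part of that shift in the result was not tested. CDKN1A, the cell cycle inhibitor, had log2FC of 0.34 (adjusted p = 0.944 from limma) in U87MG, and MDM2, the ligase of p53, had −0.18 (adjusted p = 0.961 from limma).

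TFAP2A and TFAP2C encode the transcription factors AP-2 alpha and AP-2 gamma, which act in neural crest, skin, and breast epithelium. TFAP2A (chr6:10393186-10419659, minus strand), the member with the TATA box shown above, was detected in every library. TFAP2A in U87MG measured 3.05, 4.02, and 3.44 CPM in “Vec” and 6.12, 4.68, and 6.94 CPM in “WWOX”, without overlap. In T98G it measured 30.6, 26.1, and 23.7 CPM in “Vec” and 30.03, 29.2, and 34.1 CPM in “WWOX”, which overlapped. DBTRG-05MG held 14.4, 10.5, and 12.3 CPM in “Vec” and 14.6, 17.8, and 15.1 CPM in “WWOX”, which parted in CPM but not once scaled. U251MG held 3.41, 4.93, and 4.22 CPM in “Vec” and 7.89, 2.65, and 7.85 CPM in “WWOX”, where replicate 2 was again the low library. log2FC was positive in all 4 lines: 0.62 for U87MG (adjusted p = 0.251 from limma), 0.36 for U251MG, 0.28 for DBTRG-05MG, and 0.21 for T98G. The mean was 0.37 ± 0.121 (standard error; adjusted p = 0.141 from limma; exact two-sided permutation p = 0.00256), and it passed the threshold of limma without U251MG “WWOX” replicate 2 (0.43, adjusted p = 0.0180).

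TFAP2C (chr20:56629306-56639283, plus strand), the only member that overlapped no other annotated gene, was lowest in U87MG. TFAP2C in U87MG measured 1.78, 0.541, and 1.12 CPM in “Vec” and 3.43, 2.10, and 3.05 CPM in “WWOX”. The other lines were far higher, at 69.9, 41.1, and 43.1 CPM in T98G “Vec” and 36.8, 43.5, and 31.8 CPM in T98G “WWOX”. U251MG held 42.2, 62.5, and 31.6 CPM in “Vec” and 41.1, 26.5, and 103 CPM in “WWOX”, and DBTRG-05MG held 54.1, 34.0, and 51.0 CPM in “Vec” and 23.7, 40.8, and 32.6 CPM in “WWOX”. The 6 U87MG libraries thus lay between 0.541 and 3.43 CPM and all libraries of the other lines between 23.7 and 103 CPM. Within U87MG the variants did not overlap, and log2FC was 1.05 (standard error 0.358, adjusted p = 0.146 from limma). In the other lines it was 0.13 for U251MG, −0.42 for T98G, and −0.58 for DBTRG-05MG, and the variants overlapped. The difference of U87MG from the mean of the other lines was 1.34 (95% interval 0.48 to 2.2001, adjusted p = 0.111 from limma), and it passed without U87MG “Vec” replicate 1 (1.64, adjusted p = 0.0410) and without U251MG “WWOX” replicate 3 (1.48, adjusted p = 0.0310). Of the 7 genes for AP-2 cofactors and repressors, all tested, 0 passed in any line with limma, edgeR, limma-voom, or DESeq2, and 1 of 28 tests had an unadjusted p under 0.05.

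**Figure D3:**
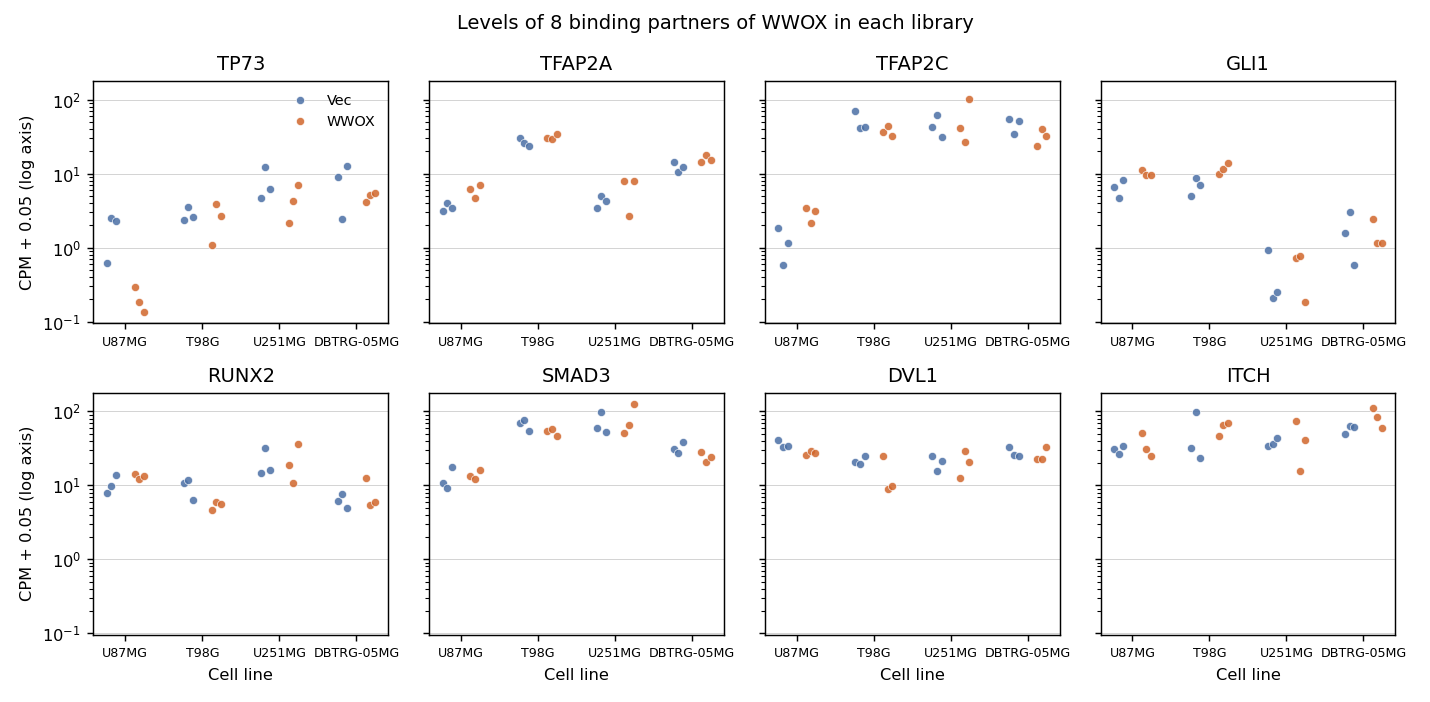
Levels of 8 binding partners of WWOX in each library, in CPM + 0.05 on a log axis, by cell line and variant. TFAP2C stays between 0.541 and 3.43 CPM in U87MG and between 23.7 and 103 CPM elsewhere, TP73 is lowest in U87MG “WWOX”, and GLI1 is lower in U251MG than in U87MG and T98G.

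ERBB4 encodes a receptor tyrosine kinase for neuregulins, whose fragment enters the nucleus with the coactivator YAP1 (chr2:211375717-212538841, minus strand). It was not tested, because no library reached 5 CPM: 23 tags were found in all 24 libraries, at most 5 in a library, and 14 libraries held 0. Of these tags, 17 came from DBTRG-05MG, with 1 to 3 per library in “Vec” (6 in all) and 2 to 5 in “WWOX” (11 in all). The other lines held 0 to 3 tags per library, and a difference between variants was not detectable at this depth. Of 10 genes for ERBB4 ligands, sheddase, and coactivator, 8 were tested and 0 passed in any line with limma, edgeR, limma-voom, or DESeq2, and 4 of 32 tests had an unadjusted p under 0.05. NRG1, a neuregulin, had its largest log2FC in T98G (0.88, adjusted p = 0.506 from limma), and YAP1 was between −0.17 and 0.25 in the 4 lines.

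RUNX2 encodes the transcription factor that drives bone formation and is used by many tumors (chr6:45328157-45664349, plus strand). RUNX2 in T98G measured 10.8, 11.6, and 6.38 CPM in “Vec” and 4.56, 5.94, and 5.48 CPM in “WWOX”, without overlap. Its log2FC of −0.76 (standard error 0.330, 95% interval −1.45 to −0.08, adjusted p = 0.370 from limma) did not pass, and in T98G the median over chromosome 6 differed from that over all genes by −0.12. In the other lines the variants overlapped, with 7.95, 9.89, and 13.6 CPM in U87MG “Vec” and 14.4, 12.1, and 13.3 CPM in U87MG “WWOX”. In U251MG the range was 14.8 to 31.8 CPM in “Vec” and 10.6 to 36.3 CPM in “WWOX”, and in DBTRG-05MG it was 4.94 to 7.66 CPM and 5.38 to 12.6 CPM. log2FC was 0.30 in U87MG, −0.03 in U251MG, and 0.19 in DBTRG-05MG. Only 3 of 9 genes listed as RUNX2 cofactor and targets were high enough to be tested, and 0 passed in any line with limma, edgeR, limma-voom, or DESeq2 (2 of 12 tests had an unadjusted p under 0.05). CBFB, the DNA-binding partner of RUNX2, was between −0.41 and 0.11.

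GLI1 encodes the transcriptional effector and target of Hedgehog signaling (chr12:57459785-57472268, plus strand). GLI1 in U87MG measured 6.60, 4.64, and 8.14 CPM in “Vec” and 11.3, 9.70, and 9.65 CPM in “WWOX”. In T98G it measured 4.92, 8.65, and 7.08 CPM in “Vec” and 9.95, 11.5, and 13.9 CPM in “WWOX”. In both lines the variants did not overlap, and log2FC was 0.60 in U87MG (adjusted p = 0.7003 from limma) and 0.76 in T98G (standard error 0.395, 95% interval −0.06 to 1.58, adjusted p = 0.481 from limma). In U251MG the level was 0.892, 0.159, and 0.201 CPM in “Vec” and 0.686, 0.715, and 0.135 CPM in “WWOX”. This is 2 to 3 tags in 3 of the libraries, no more than a count of 0 allows for, and 10 to 11 tags in the others. In DBTRG-05MG it was 1.51, 3.03, and 0.527 CPM in “Vec” and 2.42, 1.10, and 1.10 CPM in “WWOX”, with log2FC of −0.05, where the median over chromosome 12 differed from that over all genes by −0.20. The mean log2FC of the 4 lines was 0.37 (adjusted p = 0.375 from limma; exact two-sided permutation p = 0.0849). Of 12 other genes of the Hedgehog pathway, 8 were tested and 0 passed in any line with limma, edgeR, or limma-voom, while DESeq2 called KIF7 in U87MG and 5 of 32 tests had an unadjusted p under 0.05.

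SMAD3 encodes the transcription factor that carries TGF-beta signals to the nucleus (chr15:67063763-67195173, plus strand). SMAD3 in T98G measured 70.5, 76.2, and 53.9 CPM in “Vec” and 54.4, 57.7, and 46.7 CPM in “WWOX”, which overlapped in CPM and parted once scaled. In DBTRG-05MG it measured 31.1, 27.1, and 37.9 CPM in “Vec” and 28.1, 20.5, and 23.9 CPM in “WWOX”, which likewise parted on the scaled values alone. log2FC was −0.33 in T98G and −0.46 in DBTRG-05MG (adjusted p = 0.719 and 0.803 from limma). U87MG held 10.7, 9.20, and 17.5 CPM in “Vec” and 13.3, 12.3, and 16.01 CPM in “WWOX”, and U251MG ranged from 52.2 to 97.0 CPM in “Vec” and from 50.6 to 127 CPM in “WWOX”, with overlap in both lines. In U251MG log2FC was 0.15, while the median over chromosome 15 was 0.23 higher than over all genes.

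Of 14 genes of the TGF-beta and SMAD3 pathway 11 were tested, and COL1A1 was among those that passed, lower in U87MG “WWOX”. COL1A1, a chain of type I collagen, was 354 ± 177 CPM in “Vec” and 94.5 ± 46.6 CPM in “WWOX” (SD, n = 3; log2FC −1.91, adjusted p = 0.0408 from limma). Its U87MG variants did not overlap, and it did not pass in another line. The COL1A1 call was lost with any of 9 libraries left out, namely U87MG “Vec” 2 and 3, U87MG “WWOX” 2 and 3, T98G “WWOX” 2, U251MG “Vec” 1, DBTRG-05MG “Vec” 1 and 3, and DBTRG-05MG “WWOX” 3 (log2FC −2.41 to −1.57 over all 24). It was also lost under 6 of 12 alternatives, namely a pseudocount of 0.1, no filter, CPM as deposited, the replicate block, a separate model per line, and edgeR (adjusted p = 0.0615 to 0.159 across limma and edgeR). SMAD2, the closest relative of SMAD3 and likewise a carrier of TGF-beta signals, passed in U87MG with 16.3 ± 3.07 CPM in “Vec” and 38.5 ± 7.09 CPM in “WWOX” (SD, n = 3; log2FC 1.16, adjusted p = 0.00540 from limma). It was called by edgeR, limma-voom, and DESeq2 as well and with a single library left out was lost only without U87MG “Vec” replicate 2 (1.03, adjusted p = 0.0552). SMAD2 lies on chromosome 18 like PMAIP1, and the part of the chromosome shift of 0.28 was not tested.

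DVL1 encodes a Dishevelled protein, which relays Wnt signals from the receptor (chr1:1335276-1349418, minus strand), and has the GC-rich promoter shown above. DVL1 in U87MG measured 40.7, 33.0, and 34.2 CPM in “Vec” and 26.1, 28.7, and 27.4 CPM in “WWOX”, without overlap. In T98G it measured 20.7, 19.4, and 24.9 CPM in “Vec” and 24.9, 8.98, and 9.71 CPM in “WWOX”, where replicate 1 of “WWOX” matched the highest “Vec” library. U251MG held 24.6, 15.6, and 21.4 CPM in “Vec” and 12.7, 28.7, and 20.8 CPM in “WWOX”, and DBTRG-05MG held 32.7, 25.4, and 24.96 CPM in “Vec” and 22.9, 22.9, and 32.8 CPM in “WWOX”, with overlap in both. log2FC was negative in all 4 lines, from −0.71 in T98G (adjusted p = 0.494 from limma) to −0.05 in U251MG, with a mean of −0.34 (adjusted p = 0.407 from limma; exact two-sided permutation p = 0.1005). The sign in U251MG turned with edgeR (0.10) and with DESeq2 (0.12).

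Of 19 genes of the Wnt pathway 17 were tested, and with limma 1 passed in U87MG and another in T98G, both lower in “WWOX”, that is, 2 of 68 gene-by-line tests (10 at an unadjusted p under 0.05), where 3.2% and 1.14% of all genes passed in these lines. edgeR and limma-voom called 0 of these genes, and DESeq2 called AXIN2 in U87MG, LEF1 in U251MG, and SP5 in DBTRG-05MG. AXIN2, a scaffold of the beta-catenin destruction complex, was 5.07 ± 1.87 CPM in U87MG “Vec” and 2.002 ± 0.458 CPM in “WWOX” (SD, n = 3; log2FC −1.17, adjusted p = 0.0409 from limma). NKD2, which binds Dishevelled proteins, was 5.14 ± 0.361 CPM in T98G “Vec” and 2.63 ± 0.878 CPM in “WWOX” (log2FC −0.90, adjusted p = 0.0360 from limma). In these lines the variants did not overlap for either gene. The AXIN2 call was lost under 7 of 12 alternatives and with any of 12 libraries left out, namely U87MG “Vec” 2 and 3, all 3 U87MG “WWOX”, T98G “Vec” 1, T98G “WWOX” 3, U251MG “Vec” 1 and 3, and all 3 DBTRG-05MG “WWOX” (log2FC −1.48 to −1.01 over all 24). The NKD2 call was lost under 7 of 12 alternatives and without U87MG “WWOX” 2, T98G “Vec” 3, T98G “WWOX” 2 or 3, or U251MG “Vec” 3 (−1.09 to −0.63). SP5, a transcription factor induced by Wnt signaling, passed for the mean of the 4 lines (log2FC −0.80, adjusted p = 0.0236 from limma), with −1.28 for DBTRG-05MG, −1.03 for U87MG, −0.64 for T98G, and −0.26 for U251MG. Mean SP5 levels in “Vec” and “WWOX” were 3.79 and 1.69 CPM in U87MG and 1.07 and 0.126 CPM in DBTRG-05MG. They were 0.955 and 0.442 CPM in T98G and 0.181 and 0.0454 CPM in U251MG. The variants overlapped in T98G and U251MG. The SP5 call was lost without T98G “Vec” replicate 1 (−0.76, adjusted p = 0.0543) or U251MG “Vec” replicate 2 (−0.73, adjusted p = 0.0524), and with edgeR, limma-voom, no filter, or U251MG “WWOX” 1 and 2 left out. LEF1, also induced by Wnt signaling, had log2FC of 0.94 in U251MG (adjusted p = 0.194 from limma), which DESeq2 called, and CCND1, the cyclin, was between 0.01 and 0.55.

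ITCH encodes a ubiquitin ligase of the NEDD4 family that targets p73 and binds WWOX (chr20:34363235-34511773, plus strand). ITCH in T98G measured 32.0, 99.5, and 23.4 CPM in “Vec” and 45.8, 66.3, and 69.9 CPM in “WWOX”, and in U251MG 33.7, 35.7, and 44.1 CPM in “Vec” and 75.2, 15.7, and 40.8 CPM in “WWOX”. U87MG held 31.3, 26.9, and 33.8 CPM in “Vec” and 51.0, 31.3, and 24.9 CPM in “WWOX”, and DBTRG-05MG held 49.5, 62.6, and 61.9 CPM in “Vec” and 112, 83.3, and 58.7 CPM in “WWOX”. The variants overlapped in all 4 lines, and log2FC was 0.50 for T98G, 0.44 for DBTRG-05MG, 0.10 for U87MG, and −0.06 for U251MG (adjusted p = 0.686 or more from limma). Of 7 genes for adaptors and substrates of ITCH, 5 were tested and 0 passed in any line with limma, edgeR, limma-voom, or DESeq2 (2 of 20 tests had an unadjusted p under 0.05). A relative of ITCH passed: SMURF2, a ubiquitin ligase of the same family that acts on SMAD proteins, was 38.7 ± 11.2 CPM in T98G “Vec” and 17.2 ± 4.37 CPM in “WWOX” (SD, n = 3; log2FC −1.14, adjusted p = 0.0167 from limma). It was called by edgeR, limma-voom, and DESeq2 too, and was lost without T98G “Vec” replicate 1 (−1.15, adjusted p = 0.0892), “WWOX” replicate 1 (−1.08, adjusted p = 0.0563), or “WWOX” replicate 3 (−0.995, adjusted p = 0.149). With all libraries it was lost with CPM as deposited (adjusted p = 0.0748), with the replicate block (adjusted p = 0.0691), and with a separate model per line (adjusted p = 0.282, all limma). SMURF2 lies on chromosome 17, whose median in T98G differed from that over all genes by −0.31, and the part of that shift was not tested. SMURF2 and SMAD2 were the 2 of 23 tested paralogs of members that passed in a line. In T98G and U87MG, 1.14% and 3.2% of all genes passed. Among 17 tested genes for other reported WWOX partners 0 passed in any line with limma, edgeR, limma-voom, or DESeq2 (4 of 68 tests had an unadjusted p under 0.05). Among the markers of other cell types, MBP passed in U87MG (0.0491 CPM in “Vec” and 2.38 CPM in “WWOX”; log2FC 2.35, adjusted p = 2.30e-04 from limma) and CDH5 in U251MG (2.84 and 8.26 CPM; log2FC 1.28, adjusted p = 0.0132 from limma), and their part in the results above was not tested. MBP lies on chromosome 18 too, and the CDH5 call was lost without U251MG “Vec” replicate 2 (1.23, adjusted p = 0.0672), “Vec” replicate 3 (1.10, adjusted p = 0.172), or “WWOX” replicate 1 (0.97, adjusted p = 0.0683), and under 6 of 11 alternatives. DESeq2 made the MBP call and did not call CDH5.

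The lines differed from each other for most members. Among “Vec” libraries, 27 of 54 member tests (9 members, 6 pairs of lines) passed with limma. By pair, this was 3 of 9 members for U87MG against T98G (39.8% of all genes), 5 for U87MG against U251MG (38.6%), 7 for U87MG against DBTRG-05MG (44.1%), 3 for T98G against U251MG (32.3%), 4 for T98G against DBTRG-05MG (41.2%), and 5 for U251MG against DBTRG-05MG (31.6%). Against these shares of all genes, none of the counts is given as particular to the members. All 27 differences had the same sign among the “WWOX” libraries, where 23 of them also passed and 30 of 54 tests passed in all (40.9%, 41.4%, 47.1%, 39.5%, 44.3%, and 37.8% of all genes, in the order of the pairs above). Of the 27, 21 passed under all 8 alternatives run on these differences with all libraries, which were 2 pseudocounts, no filter, 2 other scalings, and 3 count tools, and none of the 27 reversed under them. With no filter, TP73 and RUNX2 for U87MG minus DBTRG-05MG and GLI1 for U251MG minus DBTRG-05MG were lost. So were RUNX2 for T98G minus U251MG, also lost with limma-voom, and DVL1 for U87MG minus U251MG. CPM as deposited lost the same DVL1 call, RUNX2 for U87MG minus DBTRG-05MG, and WWOX for U251MG minus DBTRG-05MG. TFAP2A and GLI1 differed in 5 of 6 pairs of lines, SMAD3 in 5, WWOX, TFAP2C, and RUNX2 in 3, TP73 in 2, DVL1 in 1, and ITCH in 0, the smallest adjusted p of ITCH being 0.156.

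**Figure D4:**
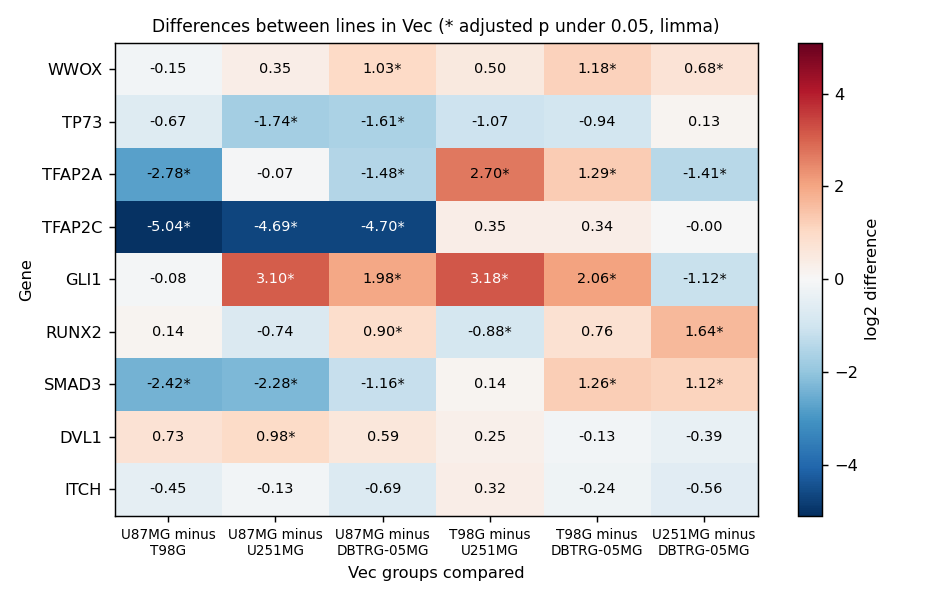
Differences between the “Vec” groups of each pair of lines on the scaled log2(CPM + 0.5) scale (color and number; n = 3 libraries per group) for the 9 members tested; an asterisk marks an adjusted p under 0.05 (limma). The 3 comparisons of U87MG hold the largest differences, those of TFAP2C (−5.04, −4.69, and −4.70), and ITCH has no asterisk.

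WWOX in “Vec” was lowest in DBTRG-05MG (21.3 ± 0.927 CPM, SD, n = 3) and higher in U251MG (33.5 ± 2.96), U87MG (37.9 ± 3.48), and T98G (43.3 ± 12.2). DBTRG-05MG was lower than each of the others: T98G minus DBTRG-05MG was 1.18 (adjusted p = 1.70e-04), U87MG minus DBTRG-05MG was 1.03 (adjusted p = 6.24e-04), and U251MG minus DBTRG-05MG was 0.68 (adjusted p = 0.0213, limma). The last of these was lost without U251MG “Vec” replicate 2 (0.66, adjusted p = 0.0583), DBTRG-05MG “Vec” replicate 1 (0.67, adjusted p = 0.0595), or DBTRG-05MG “Vec” replicate 3 (0.63, adjusted p = 0.0752). With all libraries it was lost with CPM as deposited (0.64, adjusted p = 0.104 from limma). The neighbors T98G, U87MG, and U251MG did not differ past the threshold (adjusted p = 0.0925 to 0.625), although T98G minus U251MG passed without U251MG “WWOX” replicate 1 or 2 (0.50, adjusted p = 0.0384 and 0.0350) and, with all libraries, with DESeq2 (0.52, adjusted p = 0.0456). Among “WWOX” libraries, DBTRG-05MG (29.4 ± 2.25 CPM) was again lowest, and it differed from U87MG and T98G but not past the threshold from U251MG (0.29, adjusted p = 0.325 from limma). WWOX in DBTRG-05MG “WWOX” cells, at 27.96 to 32.0 CPM, was thus below all 3 “Vec” libraries of U87MG and of T98G.

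TFAP2C had the largest difference of any member: U87MG minus T98G was −5.04 (standard error 0.358, adjusted p = 8.88e-11 from limma). Its levels in T98G, DBTRG-05MG, and U251MG “Vec” (51.4 ± 16.1, 46.4 ± 10.8, and 45.5 ± 15.7 CPM) did not differ past the threshold. TFAP2A was highest in T98G (26.8 ± 3.47 CPM), then in DBTRG-05MG (12.4 ± 1.96), and lowest in U251MG (4.19 ± 0.765) and U87MG (3.50 ± 0.486), which did not differ past the threshold (−0.07, 95% interval −0.57 to 0.43), whereas all other pairs did. The AP-2 genes therefore took different orders over the lines, with U251MG low in TFAP2A and high in TFAP2C.

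GLI1 fell into higher and lower lines. It was 6.88 ± 1.87 CPM in T98G and 6.46 ± 1.75 CPM in U87MG “Vec”, 1.69 ± 1.26 in DBTRG-05MG, and 0.417 ± 0.412 in U251MG. U87MG and T98G did not differ past the threshold (−0.08, 95% interval −0.90 to 0.74), and T98G minus U251MG was 3.18 (adjusted p = 1.05e-06 from limma), a value that the added 0.5 CPM makes smaller because U251MG held 16 tags in all. U251MG minus DBTRG-05MG was −1.12 (adjusted p = 0.0343 from limma), and this was lost without U251MG “Vec” replicate 2 (−0.91, adjusted p = 0.132) or 3 (−0.97, adjusted p = 0.122) and without DBTRG-05MG “Vec” replicate 1 (−1.09, adjusted p = 0.0834) or 2 (−0.67, adjusted p = 0.233). With all libraries it was lost with no filter (adjusted p = 0.116 from limma).

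SMAD3 was highest in U251MG (69.8 ± 23.9 CPM) and T98G (66.9 ± 11.6) “Vec”, which did not differ past the threshold (0.14, 95% interval −0.44 to 0.71), then in DBTRG-05MG (32.0 ± 5.48) and lowest in U87MG (12.4 ± 4.41), and all other pairs passed. RUNX2 was highest in U251MG (20.9 ± 9.51 CPM), followed by U87MG (10.5 ± 2.87), T98G (9.60 ± 2.81), and DBTRG-05MG (6.23 ± 1.37). U251MG minus DBTRG-05MG was 1.64 (adjusted p = 4.82e-04 from limma), whereas the call for T98G minus U251MG (−0.88, adjusted p = 0.0444) was lost with any of 11 libraries left out, namely U87MG “Vec” 2, U87MG “WWOX” 2 and 3, all 3 T98G “Vec”, T98G “WWOX” 2 and 3, U251MG “Vec” 2, DBTRG-05MG “Vec” 1, and DBTRG-05MG “WWOX” 3 (−1.05 to −0.58 over all 24). U87MG minus DBTRG-05MG was 0.90 (adjusted p = 0.0312 from limma) and was lost without U87MG “Vec” replicate 2 (0.92, adjusted p = 0.0586) or 3 (0.75, adjusted p = 0.118) or DBTRG-05MG “Vec” replicate 1 (0.91, adjusted p = 0.0645) or 3 (0.70, adjusted p = 0.141). With all libraries it was lost with no filter (adjusted p = 0.0865) and with CPM as deposited (0.69, adjusted p = 0.158, both limma). T98G minus DBTRG-05MG passed without U251MG “WWOX” replicate 3 (0.76, adjusted p = 0.0498) or DBTRG-05MG “Vec” replicate 2 (0.95, adjusted p = 0.0480). TP73 was higher in DBTRG-05MG (8.06 ± 5.29 CPM) and U251MG (7.66 ± 4.05) than in U87MG (1.76 ± 1.04), with T98G (2.80 ± 0.627) between. U87MG minus U251MG was −1.74 (adjusted p = 0.00789 from limma) and was lost without U87MG “Vec” replicate 1 (−1.24, adjusted p = 0.0721) or U251MG “Vec” replicate 2 (−1.40, adjusted p = 0.0505). U87MG minus DBTRG-05MG was −1.61 (adjusted p = 0.0118 from limma) and was lost without U87MG “Vec” replicate 1 (−1.12, adjusted p = 0.0942) or DBTRG-05MG “Vec” replicate 1 (−1.40, adjusted p = 0.0554) or 3 (−1.22, adjusted p = 0.0824), while T98G minus DBTRG-05MG passed without DBTRG-05MG “Vec” replicate 2 (−1.55, adjusted p = 0.0155). DVL1 was 35.9 ± 4.15 CPM in U87MG, 27.7 ± 4.32 in DBTRG-05MG, 21.7 ± 2.89 in T98G, and 20.5 ± 4.58 in U251MG, and its call, U87MG minus U251MG (0.98, adjusted p = 0.0461 from limma), was lost with any of 14 libraries left out, namely all 3 U87MG “Vec”, U87MG “WWOX” 2 and 3, T98G “Vec” 1, U251MG “Vec” 2 and 3, U251MG “WWOX” 3, all 3 DBTRG-05MG “Vec”, and DBTRG-05MG “WWOX” 1 and 2 (0.76 to 1.14 over all 24). ITCH ranged from 30.7 ± 3.50 CPM in U87MG to 58.0 ± 7.37 CPM in DBTRG-05MG.

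Over the 24 libraries, the genes whose scaled log2 values followed WWOX most closely were TMC3-AS1 (Pearson r 0.89), CREG1 (0.89), SLC38A6 (0.89), MAP3K20 (0.88), and ZNF521 (0.88). Among the members, GLI1 was most like WWOX (0.74, higher than 98.1% of genes) and TP73 least (−0.71). These values describe points that share libraries, groups, and lines: over the 8 group means r was 0.80 for GLI1 and −0.79 for TP73, but within groups, after the mean of each group was removed, it was 0.12 and −0.30. Of the 5 genes, ZNF521 passed in U87MG (log2FC 1.05, adjusted p = 0.00894 from limma), and the other 4 did not pass in any line. The ZNF521 call was lost without U87MG “Vec” replicate 2 (0.95, adjusted p = 0.0658) or “WWOX” replicate 1 (0.83, adjusted p = 0.0904), and with edgeR (adjusted p = 0.0598), a pseudocount of 0.1 (adjusted p = 0.0552), or a separate limma model per line (adjusted p = 0.114). ZNF521 lies on chromosome 18 as well, and the part of the shift of 0.28 there in U87MG was not tested.

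Within groups, ITCH moved most closely with WWOX among the members (r 0.79 over 24 libraries, with 239 genes as high or higher) and DVL1 opposite to it (−0.73). In U251MG “WWOX”, replicate 1 was high in both WWOX (56.7 CPM) and ITCH (75.2 CPM) and low in DVL1 (12.7 CPM), and replicate 2 was low in WWOX (17.4 CPM) and ITCH (15.7 CPM) and high in DVL1 (28.7 CPM). T98G “Vec” replicate 2 was the highest of its group in WWOX (57.2 CPM) and ITCH (99.5 CPM) and the lowest in DVL1 (19.4 CPM). T98G “WWOX” replicate 1 was the lowest of its group in WWOX (45.1 CPM) and the highest in DVL1 (24.9 CPM). Its DVL1 deviation (0.96) was the largest of the 24 libraries, and r without it was not computed. Without the 3 U251MG “WWOX” libraries r was 0.68 for ITCH and −0.52 for DVL1 (21 libraries). With T98G “Vec” replicate 2 left out as well it was 0.52 and −0.50 (20 libraries), but group means were not computed again. The other T98G “Vec” libraries thus kept deviations from a mean that includes replicate 2, and these values are not free of it. The points share their libraries and depth, and 7.07% of all genes had an r over 0.7 with WWOX and 7.42% one under −0.7.

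**Figure D5:**
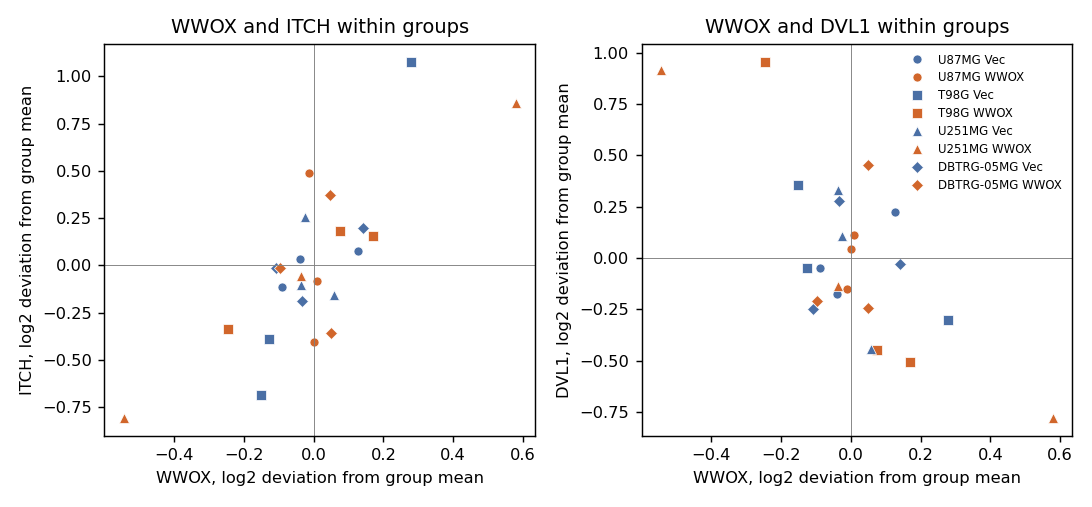
Deviation of each of the 24 libraries from its group mean on the scaled log2(CPM + 0.5) scale, WWOX on the horizontal axis and ITCH (left) or DVL1 (right) on the vertical axis; shapes are lines and colors are variants. Points far from the center are U251MG “WWOX” replicates 1 and 2 in both panels. T98G “Vec” replicate 2 is far from it for ITCH (1.08), and T98G “WWOX” replicate 1 for DVL1 (0.96). The r over all libraries is 0.79 for ITCH and −0.73 for DVL1.

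On chromosome 16, the nearest protein-coding genes tested on either side of WWOX were followed in the same way. On the left these were VAT1L, NUDT7, and SYCE1L (119 to 886 kb away) and on the right MAF, CDYL2, and CENPN (373 to 1794 kb away). CDYL2, a chromodomain protein 1385 kb from WWOX (chr16:80597907-80804598), was lower in “WWOX” in U251MG (3.19 ± 0.614 CPM in “Vec” and 0.274 ± 0.131 CPM in “WWOX”, SD, n = 3; log2FC −2.25, adjusted p = 1.82e-04 from limma) and in DBTRG-05MG (5.87 ± 1.001 and 2.05 ± 1.12 CPM; log2FC −1.43, adjusted p = 0.00784 from limma). In both lines its variants did not overlap. The U251MG call was kept under every alternative run, and the DBTRG-05MG call was lost without DBTRG-05MG “WWOX” replicate 2 (−1.35, adjusted p = 0.0533) or 3 (−1.22, adjusted p = 0.0821), and with edgeR, the replicate block, or a separate model per line. In U87MG and T98G log2FC of CDYL2 was −0.08 and −0.17, and the other 5 neighbors passed in no line. Over chromosome 16 as a whole, the median differed from that over all genes by −0.05 to 0.12 in the 4 lines.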

How the data were processed

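CAGE-Seq libraries of 4 glioblastoma lines were mapped by the authors to hg38 with STAR and handled with SAMtools, and the submitters' notes name limma 3.42. The gene annotation and strand setting of the counting are not given in the sources used here. The authors deposited CPM per gene, that is, tags scaled to 1000000 tags on genes, and 24 single-library files were identical to the table. Whole tags were recovered from the deposited CPM for 100.0% of values (within 0.01 tag), which gave the depth and served edgeR, limma-voom, and DESeq2 as alternatives. Identifiers were matched without version to GENCODE 44 (43033 of 43037 genes). Genes at 5 CPM or more in at least 1 library were scaled by TMM factors (0.798 to 1.22; trims of 30% and 5%), and log2(CPM + 0.5) was fitted with limma on 8 group means with 16 residual degrees of freedom. Tests were two-sided, and p values were adjusted by Benjamini-Hochberg over 12327 genes (threshold 0.05). Because 0.5 CPM is added, log2FC understates changes of low genes. Single values were also compared by exact permutation, where 3 against 3 libraries cannot go below p = 0.1. Figures and tables were made in Python 3.11.15 (matplotlib 3.10.9, pandas 2.3.3, numpy 2.4.6), and fits in R 4.3.3 with DESeq2 1.42.0, edgeR 4.0.16, and limma 3.58.1. The fit was tested on simulated data before use.

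Members and gene lists were chosen with earlier results of these data known. Named genes were the members, at most 3 genes per list past the threshold in a line (smallest adjusted p first), paralogs that passed, the 5 genes with the highest Pearson r with WWOX, and at most 3 tested coding genes on each side of WWOX. CDKN1A, MDM2, NRG1, YAP1, CBFB, KIF7, LEF1, CCND1, and SP5 were named after their values were seen, and some genes of the lists are not reported here. Alternatives were a pseudocount of 0.1 or 1, no filter, no scaling, median-of-ratios scaling, a replicate block, a separate model per line, the 3 count tools, and leaving out each library. Leaving out all 6 U251MG libraries, leaving out U251MG “WWOX” 1 and 2, and comparing lines among “WWOX” libraries were chosen after seeing the data. Replicates that share a number were not paired: the deviations of same-numbered libraries correlated over 0.1 in 4 of 12 pairs (−0.546 to 0.510).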

Additional observations from a re-analysis of the deposited data

Results flagged for a closer look

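Each of these genes had a log2FC that differed between lines, by the test of a line against the mean of the other lines (limma, adjusted over all genes tested). SMAD2 in U87MG lay 1.05 above the other lines (adjusted p = 0.0472). COL1A1 in U87MG differed from the other lines by −2.25 (adjusted p = 0.0448), and SMURF2 in T98G by −1.09 (adjusted p = 0.0449). Outside U87MG the group means of COL1A1 were 0.325 to 3.97 CPM, where the added 0.5 CPM makes log2FC smaller. Among the markers of other cell types, MBP differed by 2.41 in U87MG (adjusted p = 0.00121) and by −1.88 in T98G (adjusted p = 0.0264), and CDH5 by 1.25 in U251MG (adjusted p = 0.0397). Group means of CDH5 were 0 to 0.0874 CPM outside U251MG, so the added 0.5 CPM kept log2FC small in those lines. MBP in T98G had means of 0.581 CPM in “Vec” and 0.0750 CPM in “WWOX” and did not pass in that line by itself. The mean of the other lines set against T98G includes U87MG, where MBP was higher in “WWOX”. No member differed between lines by the test of a line against the others at the threshold of limma. With 3 libraries per group, single libraries were not examined for distance from their group by Dixon's test.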

How the results depend on the processing

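With 3 libraries per group and member levels down to a few tags, small changes of low genes were not detectable. WWOX in U87MG passed with DESeq2 (log2FC 0.67), without the 6 U251MG libraries (0.66), and without U251MG “WWOX” 1 and 2 (0.66), and the mean of the lines passed with DESeq2 (0.39) and without the 6 U251MG libraries (0.48). WWOX in U251MG changed sign, to 0.0066 with CPM as deposited, 0.087 with edgeR, 0.018 with limma-voom, and 0.077 with DESeq2. Members called in U87MG numbered 0, but 1 with a pseudocount of 0.1 or edgeR, and 2 with DESeq2, without the 6 U251MG libraries, or without U251MG “WWOX” 1 and 2. For the mean, 3 members were called with DESeq2 and 1 without the 6 U251MG libraries, and for differences between lines DESeq2 called 1. The causes of these changes were not tested. With each library left out in turn, WWOX log2FC was 0.60 to 0.71 (U87MG), 0.29 to 0.52 (T98G), −0.30 to 0.23 (U251MG), 0.33 to 0.46 (DBTRG-05MG), and 0.28 to 0.41 (mean). Members called then numbered 0 to 2 in U87MG, 0 in the other lines, 0 to 3 for the mean, 0 to 1 for differences between lines, and 21 to 28 of 54 between “Vec” groups.

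Other values changed sign. Without U251MG “WWOX” 1 and 2, RUNX2 turned to 0.64 in U251MG and 0.093 for the mean, GLI1 in U251MG to −0.49, and SMAD3 for the mean to 0.0080. With edgeR and DESeq2, respectively, DVL1 in U251MG turned to 0.097 and 0.12, ITCH in U251MG to 0.12 and 0.10, and, for “Vec” U251MG minus DBTRG-05MG, TP73 to −0.011 and −0.028 and TFAP2C to 0.017 and 0.0013. RUNX2 in U251MG turned to 0.0044 with edgeR and 0.00059 with limma-voom, GLI1 in DBTRG-05MG to 0.013 with CPM as deposited and 0.066 with limma-voom, SMAD3 for “Vec” T98G minus U251MG to −0.024 with CPM as deposited, and TFAP2C for the mean to −0.0034 with a pseudocount of 1. With single libraries left out, these log2FC values also took both signs. TP73 ran from −0.59 to 0.17 (T98G). TFAP2C ran from −0.31 to 0.34 (U251MG) and −0.066 to 0.11 (mean). RUNX2 ran from −0.37 to 0.27 (U251MG) and −0.13 to 0.43 (DBTRG-05MG). DVL1 ran from −0.54 to 0.34 (U251MG). GLI1 ran from −0.087 to 0.54 (U251MG) and −0.53 to 0.40 (DBTRG-05MG). SMAD3 ran from −0.031 to 0.35 (U87MG) and −0.12 to 0.52 (U251MG). ITCH ran from −0.16 to 0.30 (U87MG) and −0.49 to 0.31 (U251MG). Between “Vec” groups, the same held for these differences. TP73 ran from −0.49 to 0.52 (U251MG minus DBTRG-05MG). TFAP2A ran from −0.17 to 0.030 (U87MG minus U251MG). TFAP2C ran from −0.22 to 0.21 (U251MG minus DBTRG-05MG). RUNX2 ran from −0.0079 to 0.33 (U87MG minus T98G). DVL1 ran from −0.32 to 0.017 (T98G minus DBTRG-05MG). GLI1 ran from −0.29 to 0.13 (U87MG minus T98G). SMAD3 ran from −0.029 to 0.36 (T98G minus U251MG). ITCH ran from −0.76 to 0.085 (U87MG minus T98G), −0.21 to 0.67 (T98G minus U251MG), and −0.77 to 0.099 (T98G minus DBTRG-05MG).

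With the replicate block, WWOX in U87MG stayed at 0.66 (adjusted p = 0.264, limma), 0 members were called in any line, and the calls of AXIN2, COL1A1, NKD2, SMURF2, and CDYL2 in DBTRG-05MG were lost. Same-numbered libraries share only a number. The planned search for motifs in member proteins was not run.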
